A study of Mus musculus with 5 samples.

Results

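The microRNA genes nearest to a peak of Nr1d1 or of control IgG in mouse Th1 cells numbered 155, of 12195 genes that were nearest to any peak. They were found by name: a gene was taken when the deposited annotation of a peak listed a microRNA symbol (Mir or Mirlet followed by a number) as its nearest gene, and host transcripts of microRNAs were left out. RefSeq lists all 155 as microRNA genes. They are 155 of the 1180 RefSeq microRNA genes with a name of this pattern, or 13.1%. They were the nearest genes of 493 peaks, 253 of 19584 annotated peaks of the Nr1d1 chromatin immunoprecipitation (ChIP) and 240 of 17110 annotated peaks of the mock pull-down with IgG.

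The series mapped Nr1d1 binding by ChIP-seq in 5 libraries: 3 pull-downs labelled Reverb, 1 IgG mock and 1 input, which is sheared chromatin without a pull-down. The C57BL/6 mice were wild-type and 4 to 6 weeks old, and their naive CD4 T cells were stimulated through CD3 and CD28, driven to the Th1 state with IL-12, IFNγ and an antibody that blocks IL-4, harvested after 3 to 4 days and fixed with 1% formaldehyde for 30 min. The label for the antibody names the same Nr1d1 antibody for all 5 libraries, so the groups follow the titles. Peaks were deposited for each antibody as a whole, with no value for a single library. There was therefore no replicate spread to test against, every interval below is a 95% interval that covers the counting of peaks or genes only, and peaks of the same gene are not independent. Neither the depth behind a peak nor the purity of the Th1 cells could be read from peak lists. The labels do not say whether cells of several mice were pooled.

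Nr1d1, also called REV-ERBα, is a nuclear receptor of the circadian clock that binds heme and represses transcription. A microRNA is cut from a hairpin within a longer primary transcript, by Drosha in the nucleus and Dicer in the cytoplasm, and then guides Argonaute to messenger RNAs that pair with its seed, bases 2 to 8 from its 5′ end. In CD4 T cells microRNAs are known to set proliferation, survival and the balance of helper subsets. Many microRNA genes lie in introns of protein-coding genes or in clusters that share a single primary transcript. The start that the annotation used for a microRNA gene was the 5′ end of its hairpin: 405 of 406 peaks of 125 genes that could be compared gave the same start as the RefSeq hairpin within 10 bp, and the largest offset was 95.5 bp. A peak in the promoter class of these genes is thus a peak near the hairpin, which for a clustered or intronic microRNA can be far from where its primary transcript starts. Distances are given from that start to the middle of the peak, negative upstream.

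Hairpins that a peak touched show most directly how a peak and a microRNA lay to each other. In the RefSeq hairpins below (GRCm38.p6, the mm10 build of the peaks, 5′ to 3′ on the strand of the gene), capitals mark the bases inside the peak. Mir8117 (chr5:50252762-50252868, plus strand), Mir17 (chr14:115043671-115043754, plus strand) and Mir7229 (chr5:113324493-113324545, minus strand) were touched by ChIP peaks that overlapped no IgG peak, called ChIP-specific here. Mir543 (chr12:109717258-109717333, plus strand) was touched by an IgG peak that overlapped no ChIP peak.
Mir8117: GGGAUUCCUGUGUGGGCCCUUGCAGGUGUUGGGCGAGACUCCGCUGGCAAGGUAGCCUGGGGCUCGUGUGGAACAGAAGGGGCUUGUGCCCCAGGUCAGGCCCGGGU
Mir17: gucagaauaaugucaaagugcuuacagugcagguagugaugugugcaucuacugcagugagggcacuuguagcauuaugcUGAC
Mir7229: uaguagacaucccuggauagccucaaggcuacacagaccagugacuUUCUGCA
Mir543: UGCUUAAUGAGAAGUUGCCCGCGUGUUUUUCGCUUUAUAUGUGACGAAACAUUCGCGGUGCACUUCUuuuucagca

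The mature microRNAs of the genes with a ChIP-specific peak close to the hairpin, and of the list members described further on, are shown with the seed in capitals. 1 arm is given for each gene. The first 9 belong to genes with a ChIP-specific peak in the promoter class, miR-295-3p to a gene with one downstream of the hairpin, and miR-8117 to a gene with one over the hairpin.
miR-34a-5p: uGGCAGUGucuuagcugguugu
let-7i-5p: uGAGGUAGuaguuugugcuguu
miR-18a-5p: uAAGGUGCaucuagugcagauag
miR-203-3p: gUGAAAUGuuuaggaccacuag
miR-433-3p: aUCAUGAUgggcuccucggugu
miR-341-3p: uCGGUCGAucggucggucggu
miR-6342: cAGCAGCAaucuggucuuugag
miR-6346: uAGCAGGUgucugcaaugccaa
miR-5126: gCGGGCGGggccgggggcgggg
miR-295-3p: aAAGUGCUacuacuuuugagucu
miR-8117: gCUCGUGUggaacagaagggg
miR-17-5p: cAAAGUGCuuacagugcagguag
miR-223-3p: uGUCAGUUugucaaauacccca
miR-31-5p: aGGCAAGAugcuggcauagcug
miR-138-5p: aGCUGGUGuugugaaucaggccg
miR-218-5p: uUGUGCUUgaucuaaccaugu
miR-128-3p: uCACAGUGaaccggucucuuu
miR-206-3p: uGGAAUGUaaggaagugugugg

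The promoter class held 4.74% of the ChIP-specific peaks of microRNA genes, beside 5.52% over all genes. These peaks lay at 9 microRNA genes. Among them were Mir34a, whose product is induced by p53 and slows the cell cycle, Mirlet7i of the let-7 family, which holds back growth genes, Mir18 of the cluster that Mir17 opens, which promotes lymphocyte proliferation, and Mir203, a regulator of keratinocyte differentiation. By the definition of ChIP-specific, none of the 9 peaks had an IgG peak over it. Their false discovery rates (FDR, the deposited q-value of a peak over the input) ran from 0.00871 at Mir203 to 0.0301 at Mir18, and the largest FDR in all lists was 0.049986.

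The peak at Mir34a spanned chr4:150068076-150068299, 225 bp long, at -267 bp with an FDR of 0.00928, and ended 155 bp from the hairpin. The peak at Mirlet7i spanned chr10:122985926-122986099, 175 bp long, at -289 bp with an FDR of 0.0188. The peak at Mir203 spanned chr12:112130476-112130724, 250 bp long, at -280 bp. These 3 peaks lay in no RefSeq protein-coding gene, and each was the only peak of either list assigned to its gene.

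The shortest of the 9 was the peak at Mir18, chr14:115043751-115043849, which was 100 bp long and at -51 bp. It lay between the hairpins of Mir17 and Mir18 in the cluster Mir17 to Mir92-1 of 6 hairpins (chr14:115043671-115044506), and covered 4 bases at the 3′ end of the Mir17 hairpin shown above. The peak therefore sat within the stretch that holds the hairpins of the shared primary transcript. It was the only peak of either list assigned to a gene of this cluster.

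At the imprinted Dlk1-Dio3 region of chromosome 12, whose microRNAs are transcribed from the maternal copy, ChIP-specific peaks lay at Mir433 (chr12:109591351-109591649, -215 bp, FDR 0.00887) and Mir341 (chr12:109611176-109611449, -188 bp, FDR 0.0088). The Mir433 peak was inside Rtl1, a retrotransposon-derived gene on the opposite strand of that region. The long cluster from Mir379 to Mir3072 in the same region (chr12:109709060-109747960) had 39 hairpins, and the peak at Mir543 was its only one. That peak came from IgG, at -6 bp with an FDR of 0.0123, and also covered 8 bases of the Mir666 hairpin.

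The other 3 promoter-class ChIP-specific peaks belonged to microRNA genes without a well known role. They were at Mir6342 (-176 bp, FDR 0.0179), Mir5126 (-539 bp, FDR 0.0088, inside Dner, which encodes a Notch ligand) and Mir6346 (-883 bp, FDR 0.0163, inside Gli2, a transcription factor of Hedgehog signalling). A second ChIP-specific peak, 475 bp long with an FDR printed as 0 (chr1:84696401-84696874), lay 486 bp from the Mir5126 hairpin and was assigned to Dner itself. The seed of miR-6342 is that of the miR-15/16 family.

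Peaks that ChIP and IgG shared lay in the promoter class of 4 microRNA genes. Among ChIP peaks over IgG this class made 6.35% (2.50 to 15.2%), beside 8.78% over all genes. At Mir6236 the whole hairpin of 123 bp was under a ChIP peak of 400 bp (chr9:110281126-110281524) and under an IgG peak of 325 bp, both with an FDR printed as 0. At Mir3475, in Frmpd3, both peaks also had an FDR printed as 0, with the middle at -586 bp for ChIP and -573 bp for IgG. Mir6407, in Xpnpep1, had an FDR of 0.00928 for ChIP and 0.00384 for IgG. Mir124a-3, a gene for the neuronal miR-124, had 0.0144 for ChIP and 0.0164 for IgG. So the members whose promoter-class ChIP peaks had the lowest FDR, Mir6236 and Mir3475, were ones where the mock pull-down gave a peak at the same place.

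IgG peaks without a ChIP peak lay in the promoter class of 5 microRNA genes: Mir543, Mir7666 in Micu3, Mir1901 in Cables1, Mir223 and Mir448. This class made 2.82% (1.21 to 6.44%) of such peaks, beside 3.98% over all genes. Mir223, a gene known from myeloid cells, had its IgG peak at -317 bp (chrX:96242401-96242599) with an FDR of 0.0423. Mir448, in an intron of the serotonin receptor gene Htr2c, had its own at -548 bp with an FDR of 0.0396. The Mir7666 peak, 400 bp long with an FDR of 0.000934, covered the whole hairpin of 55 bp. Hairpins were thus reached by IgG peaks as well as by ChIP peaks.

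**Figure D1:**
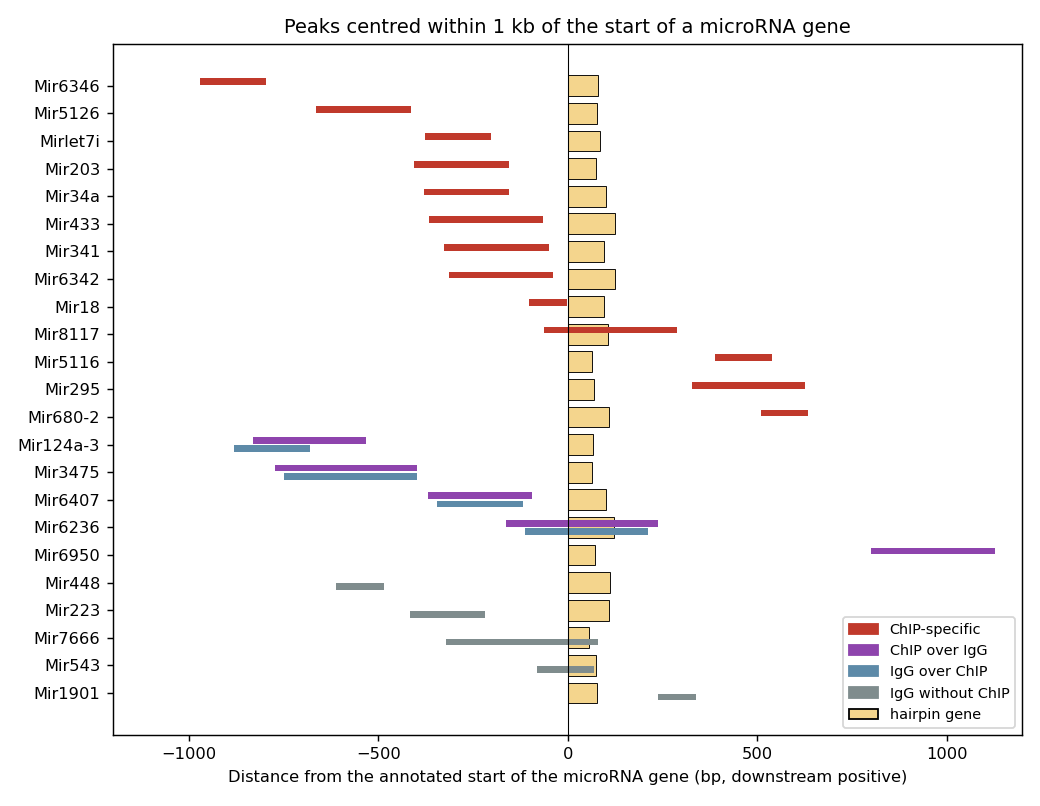
Peaks centred within 1 kb of the annotated start of a microRNA gene, drawn to scale as bars along the distance from that start (bp, downstream positive), 1 row per gene, with colours for the 4 peak groups and the hairpin gene as a yellow box. The Mir8117 peak and both Mir6236 peaks span the whole hairpin, and 9 genes have a ChIP-specific bar upstream of the hairpin, from -51 bp at Mir18 to -883 bp at Mir6346.

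The annotation placed 6 ChIP-specific peaks in the class for transcript ends (TTS), 3.16% (1.46 to 6.72%), beside 1.97% over all genes. Those assigned to Mir295, Mir5116 and Mir680-2 lay downstream of the hairpin, at +477, +464 and +572 bp. Those assigned to Mir718 and Mir7025 were farther off, at -2389 and +21594 bp, and that at Mir8117 lay over the hairpin itself. The peak at Mir8117 (chr5:50252701-50253049, 350 bp, +113 bp, FDR 0.00152) held all 107 bases of the hairpin. The peak at Mir295 (chr7:3221101-3221399, +477 bp, FDR 0.0156) followed the last hairpin of the Mir290a to Mir295 cluster, 9 hairpins whose products are abundant in embryonic stem cells. The seeds of miR-295-3p and of miR-17-5p share the 6 letters AAGUGC, a core common to microRNAs that promote the cell cycle. Mir6950, in Loxl2, had a TTS peak in both lists, with an FDR printed as 0 for ChIP and 0.0024 for IgG. Mir741 had a TTS peak in IgG with an FDR printed as 0, and the ChIP peak over it was called intergenic, 1238 bp from the start.

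Exon-class peaks made 2.63% (1.13 to 6.01%) of the ChIP-specific peaks of microRNA genes, beside 4.52% over all genes. The 5 ChIP-specific ones were 2 at Mir3108 in Zfhx3, and 1 each at Mir190a in Tln2 (chr9:67227076-67227174, FDR 0.0291), Mir717 in Gpc3 and Mir344-2. Zfhx3 encodes a transcription factor expressed in the brain clock, and its exons also held 1 IgG peak without a ChIP peak, assigned to Mir3108 with an FDR of 0.0169. Mir6923, in the myosin gene Myh3, had exon peaks in both lists, each with an FDR printed as 0. Mir6358, which has no protein-coding host, also had exon peaks in both lists, at -24702 bp for ChIP and -24665 bp for IgG, within Zbtb7c. Exon peaks of IgG without ChIP also lay near Mir128-2, Mir6393 and, once more, Mir6358.

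By FDR, 1 of the 190 ChIP-specific peaks assigned to microRNA genes was printed as 0. It was assigned to Mir6537 (chr7:25095601-25095899, 300 bp, 1425 bp from the start) and lay in an intron of Pou2f2, which encodes the lymphoid transcription factor Oct-2. Mir6537 had no other peak in either list. The next by FDR were at Mir6239 in Gpc6 (0.00104), Mir8117 (0.00152), Mir344g (0.00274), and then Mir6348, Mir6398 in Macf1 and Mir5709 in Ptprm (0.00416 each). Mir378d (0.00478), Mir3472 in Rtl4 (0.00503) and Mir6393 (0.00541) completed the first 10. Of these 10 peaks, those at Mir8117 and Mir6537 were nearest to a start, at 113 and 1425 bp, while that at Mir6239 was 501272 bp away inside Gpc6.

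ChIP peaks that overlapped an IgG peak had lower FDRs. The first 10 were at Mir690, Mir6236, Mir1963 in Ryr1, Mir3067 in Smoc1, Mir3475, Mir138-1, Mir1968 in Grtp1, Mir221, Mir467h and Mir6393, all with an FDR printed as 0. Mir221, whose product lowers the cell cycle inhibitor p27, had its ChIP peak 78288 bp from the start (chrX:19067926-19068274), and an IgG peak with an FDR of 0.00212 overlapped it by 224 bp. The ChIP peak at Mir1963 was 375 bp long and the IgG peak at the same place 350 bp, both with an FDR printed as 0. Over all groups the median FDR was 0.0168 (0.0133 to 0.0190) for ChIP-specific peaks of microRNA genes and 0.0088 (0.00541 to 0.00934) for those over IgG, against 0.0146 and 0.00594 for all genes.

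Among IgG peaks without a ChIP peak, 5 had an FDR printed as 0. They were assigned to Mir6417, Mir8117, which had 2, Mir128-2 and Mir7241. The one at Mir6417 (chr5:52042576-52042874) lay within the RefSeq bounds of Ppargc1a, the gene of the coactivator PGC-1α, although the deposited class was intergenic. The next 5 were at Mir710, Mir1187, Mir3067, Mir363 and Mir6378, each with an FDR of 0.000281. The 2 at Mir8117, whose hairpin lay under a ChIP-specific peak, were at -77250 and -67075 bp.

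Agreement of the ChIP and IgG lists around microRNA genes was measured by overlap of at least 1 bp. Of the 253 ChIP peaks, 63 overlapped an IgG peak, a share of 24.9% (Wilson interval 19.97 to 30.6%), and the share over all ChIP peaks was 26.1%. Of the 240 IgG peaks, 63 overlapped a ChIP peak, 26.2% (21.1 to 32.2%), beside 29.9% over all IgG peaks. Both intervals include the value for all genes. Of the 16 ChIP peaks of microRNA genes with an FDR printed as 0, 15 overlapped an IgG peak, the exception being that at Mir6537. Over all genes this held for 1600 of 1762 such peaks, 90.8%. Of the 30 IgG peaks with an FDR printed as 0, 25 overlapped a ChIP peak, beside 74.9% for all genes. The overlaps had a median length of 224 bp and ran from 74 to 374 bp. Every overlapping pair had been assigned to the same microRNA gene in both lists.

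The share of peaks assigned to microRNA genes was much the same in every group. It was 1.31% (1.14 to 1.51%) of ChIP-specific peaks, 1.23% (0.964 to 1.57%) of ChIP peaks over IgG and 1.48% (1.28 to 1.71%) of IgG peaks without ChIP. These intervals overlap one another.

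Counted by gene, 97 of the 155 microRNA genes had a ChIP-specific peak, 62.6% (54.7 to 69.8%), and among all genes nearest to a peak 66.4% did. Of the 97, 52 also had an IgG peak elsewhere or over another ChIP peak, and 45 had none. Among all 8100 genes with a ChIP-specific peak, 4193 also had an IgG peak and 3907 had none. Both lists gave a peak at 77 genes, 49.7% (41.9 to 57.5%), beside 49.2% of all genes. A further 33 genes, 21.3%, had IgG peaks only, beside 18.8% of all genes. By these counts microRNA genes were divided between ChIP and IgG much as other genes were, with every interval given including the value for all genes.

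By class, most peaks at microRNA genes were intergenic or intronic. Of the 190 ChIP-specific peaks 103 were intergenic, 54.2% (47.1 to 61.1%), beside 57.2% over all genes, and 67 were intronic, 35.3% (28.8 to 42.3%), beside 30.8%. The 9 promoter peaks made 4.74% (2.51 to 8.76%), beside 5.52%. Of the 240 IgG peaks 134 were intergenic, 55.8% (49.5 to 62.0%), beside 59.7%, and 9 were in the promoter class, 3.75% (1.99 to 6.97%), beside 5.46%. Intronic IgG peaks numbered 89, 37.1% (31.2 to 43.4%), and this interval lay above the 29.0% of all IgG peaks. It treats peaks as independent, which peaks of the same gene are not. Of the 89, 8 lay in Grid1 at Mir346 and 7 in Cntn5 at Mir6237, and no intronic share by gene was computed.

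**Figure D2:**
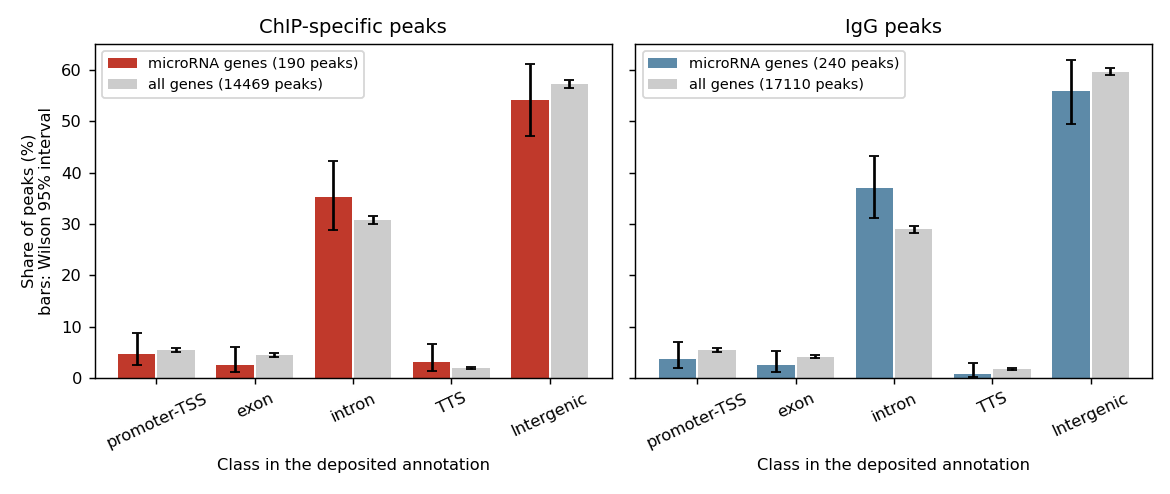
Share of peaks (%) in each annotation class, for ChIP-specific peaks (left) and all IgG peaks (right), with coloured bars for peaks of microRNA genes and grey bars for peaks of all genes; whiskers are Wilson 95% intervals, which cover counting only. The intronic share of IgG peaks at microRNA genes, 37.1%, stands above the grey bar beside it, 29.0%. Peaks of the same gene are counted separately here and are not independent.

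ChIP-specific peaks assigned to microRNA genes were farther from the annotated start than ChIP-specific peaks in general. Their median distance was 48623 bp (37725 to 66663), beside 30846 bp for all genes, and the interval does not reach the latter. For IgG the median was 40920.5 bp (31753 to 54558), beside 34550 bp, which the interval includes. The intervals also include the value for all genes for ChIP peaks over IgG, with a median of 27572 bp (14226 to 53505) beside 24942 bp, and for IgG peaks without ChIP, with 43830 bp (36044 to 61600) beside 38918.5 bp. Beyond 100 kb lay 58 ChIP-specific peaks, 30.5% (24.4 to 37.4%), beside 22.2% of all. Genes with many distant peaks weigh on this share. Over both lists the median distance was 411404 bp for the 15 peaks of Mir3964 and 194130 bp for the 18 of Mir466f-4. Within 1 kb lay 13 ChIP-specific peaks, 6.84% (4.04 to 11.4%), beside 9.50%, and 9 IgG peaks, 3.75% (1.99 to 6.97%), beside 9.09%. The ChIP-specific interval within 1 kb includes its value for all genes, and the IgG interval lies below its own. All these shares by distance treat peaks of the same gene as independent, and none was recomputed by gene. With only the nearest ChIP-specific peak of each gene kept, the median was 16835 bp (10981 to 24029) over 97 microRNA genes and 12720 bp over all 8100 genes, which this interval includes.

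**Figure D3:**
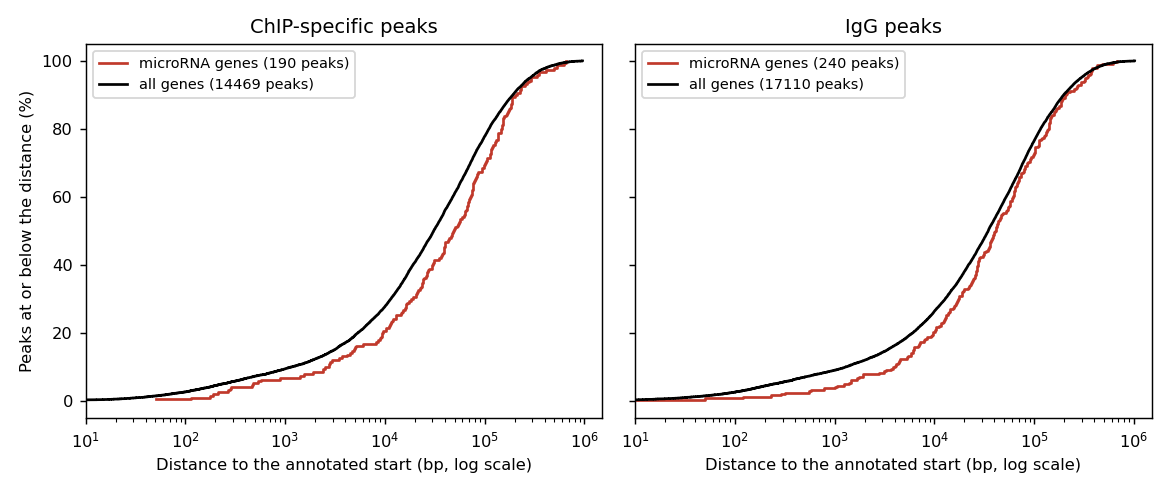
Cumulative share of peaks (%) by distance to the annotated start of the nearest gene (bp, log scale), for ChIP-specific peaks (left) and IgG peaks (right), with red for microRNA genes and black for all genes. The red line runs to the right of the black through most of the range, with medians of 48623 and 30846 bp for ChIP-specific peaks.

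A few members took many of the peaks. The 10 with the most held 148 of the 493, 30.0%, while the median was 2 peaks per gene and 63 genes had 1. Mir6393 on chromosome 15 had 32 peaks over 462 kb, of which 9 were ChIP-specific, 6 were ChIP peaks over IgG and 17 were IgG peaks. Mir6378 on chromosome 3 had 22 peaks over 295 kb, with 8 ChIP-specific and 11 from IgG. Mir466f-4 on chromosome 13 had 18 over 437 kb, and Mir3964 on chromosome 15 had 15 over 711 kb. These 4 genes lay in no RefSeq protein-coding gene, and both pull-downs gave peaks at each of them.

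Of the next 6 genes by number of peaks, Mir346 and Mir6237 lay inside long genes known from neurons. All 14 peaks of Mir346 lay in Grid1, a glutamate receptor gene of 763 kb, with 5 ChIP-specific, 1 ChIP over IgG and 8 from IgG. All 10 peaks of Mir6237 lay in Cntn5, a contactin gene of 1271 kb, with 3 ChIP-specific and 7 from IgG. Mir8110, Mir6238 and Mir6343 had no protein-coding host. Mir8110 also had 3 ChIP-specific peaks and 7 from IgG. Mir448 and Mir6238 had 9 peaks each, of which 1 and 3 were ChIP-specific, and 2 of the 9 at Mir448 lay in its host Htr2c. Mir6343 also had 9 peaks, 7 ChIP-specific and 2 from IgG, none of them overlapping.

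**Figure D4:**
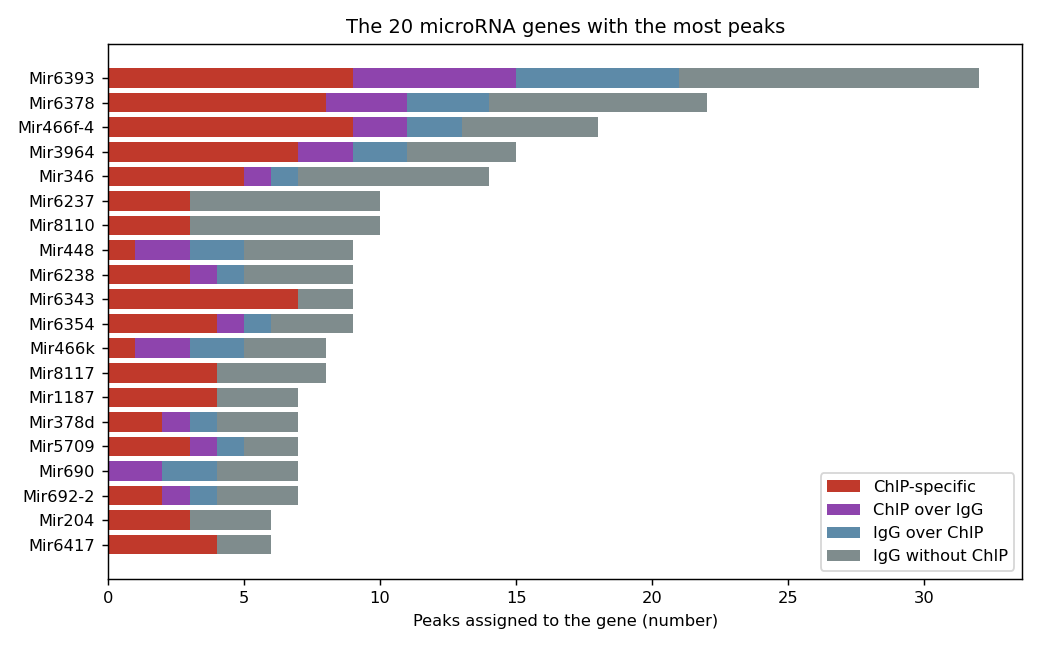
Number of peaks assigned to each of the 20 microRNA genes with the most peaks, stacked by peak group. IgG peaks are present in every row, and Mir6393 has the longest bar, with 32 peaks.

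Chromosome shares followed these genes. Chromosome 15 held 23 of the 190 ChIP-specific peaks, 12.1%, beside 4.20% of all ChIP-specific peaks, and 28 of the 240 IgG peaks, 11.7%, beside 4.56%. Mir6393 and Mir3964 gave 9 and 7 of the 23. Chromosome 3, with Mir6378, held 28 IgG peaks, 11.7%, beside 5.87%. The X chromosome held 17 ChIP-specific peaks, 8.95%, beside 10.3% over all genes.

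Of the 155 members, 85 lay inside a RefSeq protein-coding gene, 54.8% (47.0 to 62.5%), beside 794 of all 1180 microRNA genes, 67.3%. Their host genes were long, with a median of 198 kb and a range from 6.24 to 1271 kb. Hosts of all RefSeq microRNAs had a median of 46.5 kb, and all protein-coding genes one of 17.1 kb. Of the 225 peaks assigned to the hosted members 188, 83.6%, fell within the same host. At Mir204, in the ion channel gene Trpm3, all 6 peaks were in the host, 3 ChIP-specific and 3 from IgG. At Mir717 all 6 were in Gpc3, 3 of each kind. For such members the peak lay in the intron of a long host as much as near a microRNA, and the assignment by the nearest start does not tell these apart.

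Some hairpins had a peak within 1 kb that the annotation gave to another gene. Taking RefSeq positions in place of the assignment, 36 hairpins, of 3.05% of the 1180 RefSeq microRNA genes, lay within 1 kb of 27 ChIP peaks. All 6 hairpins from Mir17 to Mir92-1 were reached by the 1 peak assigned to Mir18. Of the 27 peaks, 9 were assigned to a gene that is not a member. The Dner peak beside Mir5126, described above, was one of them. Mir2861 and Mir3960, which are known from bone formation, lay 213 and 129 bp from a ChIP-specific peak at the promoter of Cdk9 (chr2:32713101-32713349, FDR 0.0319). Mir207 lay 193 bp from a ChIP-specific peak at Dnaja1, and Mir7654 14 bp from a peak at Arglu1 that both lists held. Mir9-2, a neuronal microRNA gene, lay 790 bp from a ChIP-specific peak with an FDR of 0.0213. The Mir7229 hairpin shown above had 7 of 53 bases under a ChIP-specific peak assigned to Sgsm1. For IgG, 23 hairpins, of 1.95% of the microRNA genes, lay within 1 kb of 20 peaks, of which 9 were assigned to a gene that is not a member. Among IgG peaks without a ChIP peak, 1 at Rps21 lay 62 bp from Mir3091. Mir135a-2 lay 87 bp from such a peak assigned to Gm27544, and Mir484 227 bp from another at Marf1.

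Lists of microRNAs with known roles were counted next, beside the 13.1% of all microRNA genes that were nearest to a peak. Of 47 microRNA genes known from T cells, 4 had a peak, 8.51%. Mir18 and Mir34a had a ChIP-specific peak, and Mir223 and Mir31 had an IgG peak only. The IgG peak at Mir31, a gene that T cell activation is known to alter, was at -28013 bp with an FDR of 0.0220. Genes of this list such as Mir155, which promotes Th1 responses, Mir146a, which restrains inflammation, and Mir150 were nearest to no peak of either list. Of 16 microRNA genes tied to the circadian clock or to its targets, 0 had a peak, which allows a share of up to 18.8%, a range that includes 13.1%.

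Of 19 neuronal microRNA genes 4 had a peak, 21.1%, all with a peak in both lists. Besides Mir124a-3 these were Mir138-1, Mir128-2 and Mir218-2. The ChIP peak at Mir138-1 (chr9:122647976-122648324) had an FDR printed as 0 and lay under an IgG peak with an FDR of 0.000281. Mir218-2, in the axon guidance gene Slit3, had 2 ChIP-specific peaks with FDRs of 0.0242 and 0.0421, and 1 that IgG shared. Mir128-2 had 2 ChIP-specific peaks outside its host Arpp21 and 3 IgG peaks inside it.

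The other lists gave 1 gene each. Of 11 epithelial genes only Mir203 had a peak, which was ChIP-specific, and of 14 genes of pluripotent cells only Mir295, also ChIP-specific. Of 11 muscle genes only Mir206 had one, an IgG peak at -4498 bp with an FDR of 0.00384. With 1 to 4 genes per list, no list could be set apart from the others by these counts.

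Clustered microRNA genes were seldom the nearest gene. Of 368 genes within 10 kb of another microRNA gene 21 were members, 5.71%, beside 134 of 812 single genes, 16.5%. A peak near a cluster is given to 1 gene of it only, so the count by cluster is closer to the count by single gene: 19 of 93 clusters had a peak. The X-linked cluster from Mir743 to Mir465 had 19 genes and 4 peaks, at Mir741 and Mir465. The related families Mir466, Mir467, Mir669 and Mir297, expanded in an intron of Sfmbt2 on chromosome 2, had 81 genes, 71 of them on chromosome 2. Their 4 members, Mir466f-4, Mir466k, Mir466q and Mir467h, lay on other chromosomes and had 30 peaks, of which Mir466f-4 held 18. On chromosome 2 an IgG peak without ChIP (chr2:10502676-10502849, FDR 0.00845) was assigned to Gm25753. It lay 424, 716 and 942 bp from the hairpins of Mir467a-10, Mir466b-3 and Mir669a-12.

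Seeds were compared among members, with no matching share for all RefSeq microRNAs. The RefSeq table had 192 mature sequences for 130 members with 185 different seeds, of which 5 were found in at least 2 members. In RefSeq these 5 seeds were carried by 2 to 11 genes each. The seed AGCAGCA of the miR-15/16 family, which lowers cyclins and BCL2, was shared by Mir195b, Mir6342 and Mir6353, with 4 ChIP-specific peaks and 2 IgG peaks among them.
miR-195b: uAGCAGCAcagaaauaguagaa
miR-6342: cAGCAGCAaucuggucuuugag
miR-6353: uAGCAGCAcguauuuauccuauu
The seed GUCAGGC was shared by Mir344, Mir344-2 and Mir344g, neighbours on chromosome 7, with 2 ChIP-specific peaks, 1 ChIP peak over IgG and 2 IgG peaks without ChIP.

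The letters AGGTCA, the core of the sites that REV-ERBα binds, were searched on both strands of the hairpins. They were in 6 of 125 member hairpins, 4.80%, and in 55 of all 1005 hairpins of the table, 5.47%. The members were Mir6238, Mir6352, Mir6369, Mir6379, Mir6383 and Mir8117. At Mir8117 the letters stand near the 3′ end of the hairpin shown above, which lay wholly inside the ChIP-specific peak. The other 5 member hairpins with these letters were not under a peak.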

How the data were processed

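Binding was measured by ChIP-seq in 5 libraries, 3 Nr1d1 pull-downs, 1 IgG mock and 1 input. Per the submitters' processing notes the build was mm10 and the tools included BWA and HOMER, without versions. Which program called peaks, and how libraries were merged, is not given in the sources used here. For each peak the authors deposited a q-value as an FDR, under 0.05 throughout. The score deposited by the authors in the annotation tables equals the peak length in bp, in steps of 25. No counts, heights or depths were in these lists, so depth is unknown, and no test over replicates could be run.

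Peaks were grouped by overlap of at least 1 bp between the ChIP and IgG lists. Genes, classes and distances are those of the deposited annotation. Shares have Wilson intervals and medians exact binomial intervals, both at 95%, computed with scipy 1.17.1, pandas 2.3.3 and numpy 2.4.6 under Python 3.11.15. Figures were drawn with matplotlib 3.10.9. The interval code and the overlap code were tested on simulated data. Hairpins, hosts and mature sequences came from RefSeq (GRCm38.p6). Hairpins were found there for 125 of 155 members, and sequences of chromosome 18 were left out. Promoter sequences of members were not used here, so the search of promoters that had been planned was made in hairpins.

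The members and lists were chosen with earlier results of these data known. Named genes are those with a promoter, exon or TTS peak or a peak within 1 kb, the 10 peaks first by FDR and then length and the 10 nearest to a start in each group, the 10 genes with the most peaks, list members with a peak, and clusters and families by counts. Mir204, Mir155, Mir146a and Mir150, and the genes named for hairpins that a non-member's peak reached, were chosen after values were seen. Alternatives changed the FDR threshold, the distance, the chromosomes, the overlap, the promoter definition and the peaks kept per gene. Leaving out Mir6393 was added after seeing the data.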

Additional observations from a re-analysis of the deposited data

How the results depend on the processing

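Of 45 alternative values 36 were labelled the same and 9 moved, where a count within a factor of 1.5 was labelled the same. Some counts labelled the same still fell. At an FDR of at most 0.01 the genes with IgG peaks fell from 110 to 76, and those with ChIP peaks over IgG from 47 to 33. Within 100 kb, 132 of 190 ChIP-specific and 175 of 240 IgG peaks were left. At an FDR of at most 0.01 the ChIP-specific peaks fell from 190 to 56, their genes from 97 to 45, the ChIP peaks over IgG from 63 to 41 and the IgG peaks from 240 to 130. The share of ChIP peaks overlapping IgG was then 42.3%, beside 47.9% of all ChIP peaks at that FDR. Within 100 kb the median distance was 23939.5 bp for ChIP-specific and 25456 bp for IgG peaks, and with the nearest peak per gene 16835 and 14822.5 bp; these alternatives remove distant peaks by construction. Without Mir6393, 181 ChIP-specific and 223 IgG peaks were left, with an intergenic share of 52.5 and 53.8%. The class shares that were recomputed stayed within their intervals. No paired analysis was possible because the values come from no test and each peak list covers an antibody as a whole; for the same reason no replicate could be left out.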
